A study of Rattus norvegicus with 5 samples.

Results

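Mitosis and spindle genes are 38 genes chosen by symbol for their work in cell division, from the cyclins that start mitosis to the proteins that split the cell, and 35 of them had a row among the 17048 gene rows of the data. Cenpe, Kif4a and Anln, the other 3, were not analysed here. The rule is a list of symbols, and no threshold on a measured value enters it. Of the 35, 33 lay among the 6699 most abundant rows (mean of at least 310.5 adjusted reads over the 5 libraries, the upper 50% of 13397 detected rows), and Cdc25c and Cenpa lay below that level.

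The cells were rat vascular smooth muscle cells in culture, the cells of the contractile layer of blood vessels, and the study set ligands of estrogen receptors against hypoxia, with the inflammatory enzyme cyclooxygenase-2 as its subject. There was 1 library of total RNA for each of 5 groups: In-Cl (0.1 µM) given before 24 h of hypoxia, DPN (0.1 µM) given before 24 h of hypoxia, E2 (10 nM) given before 24 h of hypoxia, 24 h of hypoxia alone, and the control. In-Cl is Indazole-Cl and DPN is diarylpropionitrile, both ligands with a preference for estrogen receptor beta, and E2 is the hormone estradiol. The labels give no donor, passage, hypoxic oxygen level or length of pretreatment, and they state neither a vehicle nor the oxygen of the control.

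No group had a second library. Each difference is therefore one between single libraries, without a check on replicates and without a p-value. Levels are adjusted reads, the deposited log2 value turned back to a linear read count that was adjusted to a common library size. A difference is that of log2(adjusted reads + 1). The interval beside a difference is a 95% counting interval (exact Clopper-Pearson, from the approximate reads of the 2 libraries). It covers error of counting, and the variation from culture to culture is not in it. A library held between about 20173080 reads (E2) and 24742150 reads (control), as far as the values show.

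The labels could be checked on other genes. All 7 hypoxia genes examined (Slc2a1, Pgk1, Ldha, Vegfa, Bnip3, Egln3 and Car9) had at least 1.5 times the control's level in the hypoxia library, with a median log2 difference of 3.17. All 8 smooth muscle markers were detected, and their summed level was 199232 adjusted reads with In-Cl, 216007 with DPN, 258402 with E2, 272761 in hypoxia and 232968 in the control. The highest marker of the library held 152451.5 of the sum in hypoxia and 119362.3 of that in the control. The median of the 8 went the other way, at 4232.2 in hypoxia and 5536.5 in the control. Of the 6 abundant markers, 3 lay above 0 and 3 below in hypoxia against control. The 6 endothelial markers summed to between 451 and 522 adjusted reads in the hypoxic libraries and 417 in the control, with Cdh5 and Kdr listed at 0 in every library. The 6 leukocyte markers summed to between 214 and 269 in the hypoxic libraries and 220.1 in the control, with Itgam and Cd3e at 0. The 5 fibroblast markers summed to between 770.4 and 818 in the hypoxic libraries and 1361 in the control, with Dpt at 0. The highest of them held 1214 of the control's sum and 591 of that in hypoxia alone. The median of the 5 went the other way, at 67.2 in hypoxia alone and 48.2 in the control. The 4 epithelial markers summed to between 482 and 565 in the hypoxic libraries and 221 in the control. The highest of these held 530.5 of the sum in hypoxia alone and 208.4 of that in the control. The part of these shifts in the results below was not tested.

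Dividing cells make most of the RNA of these genes late in the cell cycle, between the end of DNA copying and the separation of the daughter cells. Cyclins A and B bind the kinase CDK1 and drive the cell into mitosis, kinetochores tie chromosomes to the spindle, the spindle checkpoint holds the cell until every chromosome is attached, and the anaphase-promoting ubiquitin ligase then destroys cyclin B. The transcription factor FOXM1 and the MuvB complex switch many of these genes on together. Contractile smooth muscle in the vessel wall seldom divides, while cultured smooth muscle cells proliferate.

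Hypoxia against control sets the library from 24 h of hypoxia beside the control library. Most of the mitosis and spindle genes were slightly lower in hypoxia. The median log2 difference of the 35 members was -0.24, against -0.045 over the 6699 abundant rows, and 32 of 35 members lay below 0 (91.4%, against 56.2% of those rows) and 3 above (8.6%, against 43.6%). Cdc25c, a phosphatase that activates CDK1, was lowest (log2 -0.62, interval -0.93 to -0.33), and Mad2l1, a core protein of the spindle checkpoint, was next (log2 -0.53, interval -0.75 to -0.32). Cenpf, a kinetochore protein, and Mki67, the proliferation antigen, went the other way at 0.18 and 0.14. Summed over the members, hypoxia had 38079 adjusted reads and the control 43033, a difference of -11.5%.

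The counting interval lay below 0 for 27 of the 35 members (77.1%), where 39.0% of the abundant rows did so. It lay above 0 for 2 members (5.7%), Cenpf and Mki67, where 28.8% of the rows did so. The differences were small: 1 member, Cdc25c, was at least 1.5-fold lower (2.9%, against 3.39% of rows) and 0 were higher (against 4.39%), so at that size the members did not stand above the background, and 0 were 2-fold lower (against 0.224%). At a log2 difference of 0.32 or more 8 members were lower (22.9%, against 16.9% of rows) and 0 were higher (against 11.8%). Of the 33 members above the abundance level 7 were that much lower. In these bulk libraries fewer dividing cells and less RNA per cell cannot be told apart. Of 79 abundant ribosomal protein genes 74 had an interval above 0 in hypoxia and 3 below, with a median of 0.21. Their part in the members' values was not tested. With values divided by the library totals, the median was -0.19 over all abundant rows and -0.39 over the members, and 31 to 33 of 35 members lay below 0 under the scalings tried. Division by totals lowers every row, Cenpf and Mki67 included, and their intervals were not computed after it.

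The libraries with a ligand were set against the same control library, so these values share it and are given side by side. The median difference from the control was -0.35 with In-Cl, -0.24 with DPN, -0.25 with E2 and -0.24 in hypoxia, against -0.046, -0.039, -0.033 and -0.045 over the abundant rows. At least 0.32 lower on the log2 scale were 18 of 35 members with In-Cl (51.4%, against 21.9% of rows), 10 with DPN (28.6%, against 17.3%), 11 with E2 (31.4%, against 17.5%) and 8 in hypoxia. In-Cl thus had more members past that size than any other library. The summed level differed from the control by -13.0% with In-Cl, -13.3% with DPN, -12.4% with E2 and -11.5% in hypoxia.

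**Figure D1:**
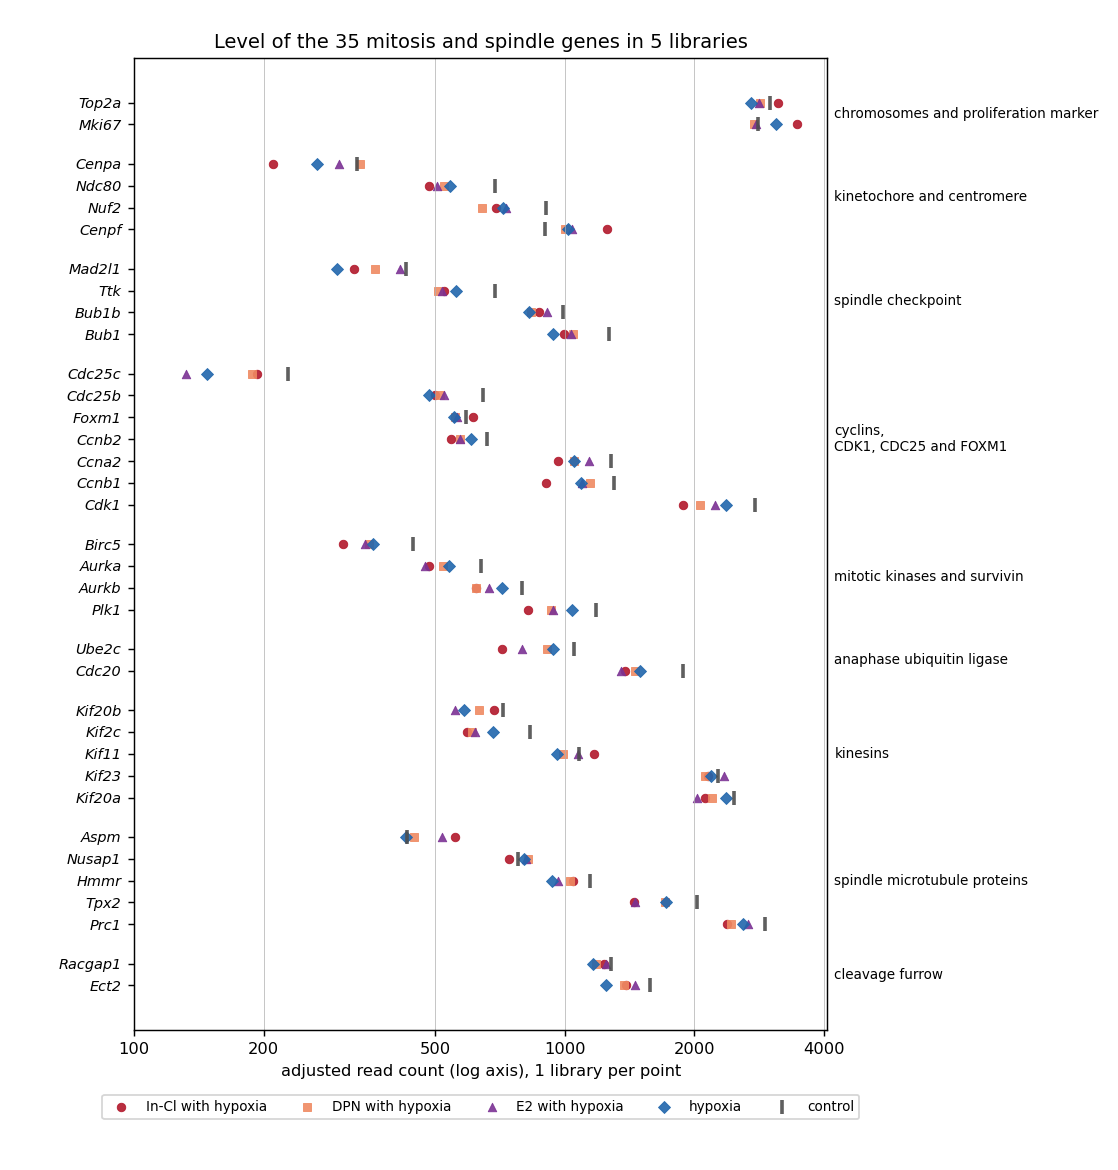
Adjusted read count (x axis, log scale) of the 35 mitosis and spindle genes (y axis, grouped by role) in the 5 libraries, 1 point per library. Cenpf has its control (grey bar) at the left end of its row, and Cdk1, Plk1 and Cdc20 have theirs at the right end.

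**Figure D2:**
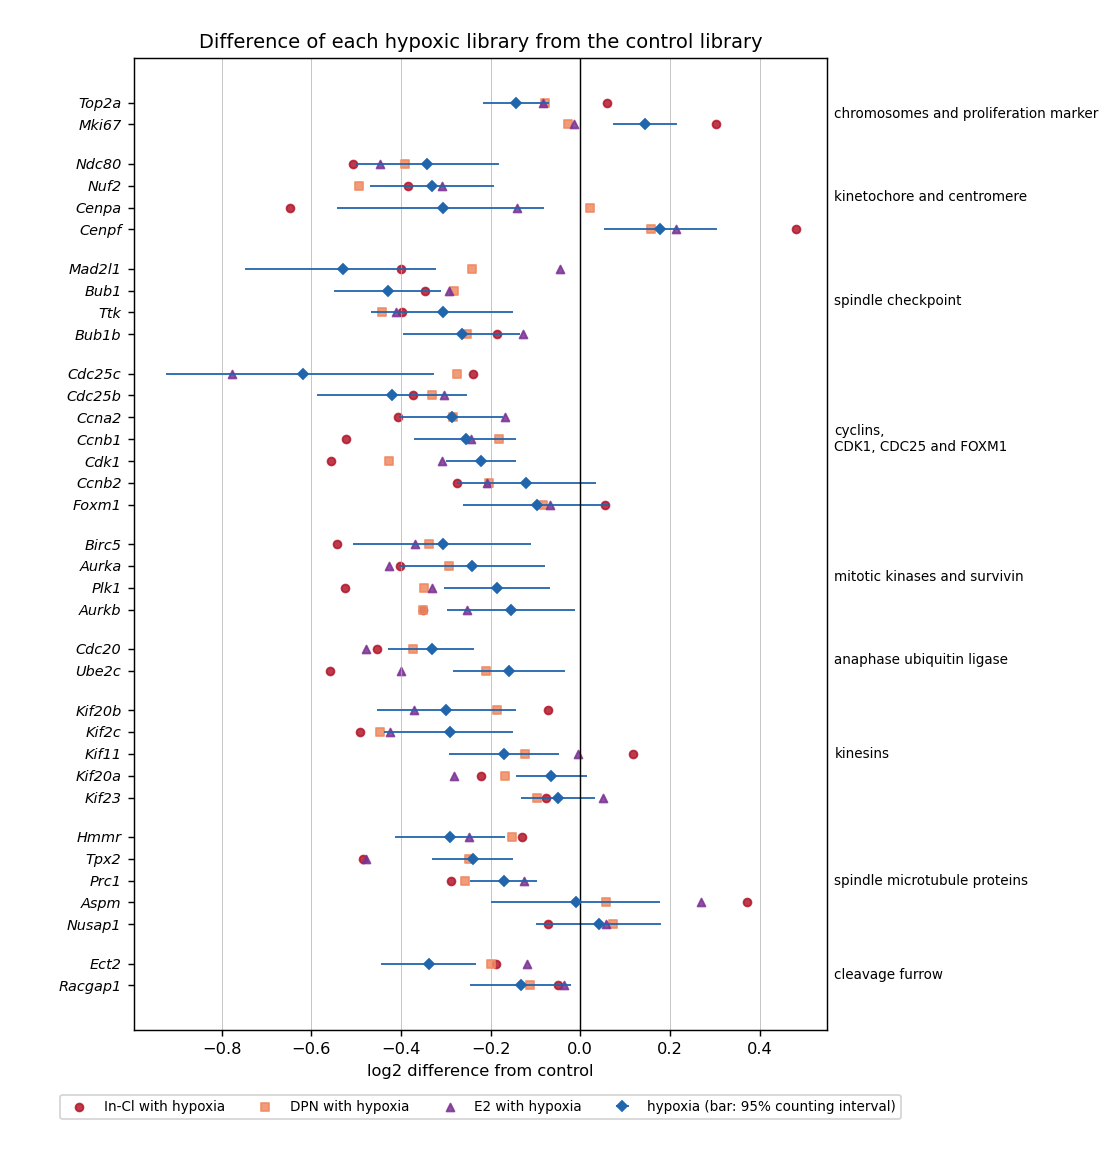
Log2 difference of each hypoxic library from the control (x axis) for the 35 genes (y axis, grouped by role); bars are 95% counting intervals for hypoxia alone. The hypoxia points lie left of 0 for 32 genes, with Cdc25c farthest left at -0.62 and Cenpf farthest right at 0.18.

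Of the 7 genes for cyclins, CDK1, CDC25 phosphatases and FOXM1, which start mitosis, all lay below 0 in hypoxia (against 56.2% of rows) and 5 had an interval below 0 (against 39.0%), with a median of -0.26. Ccnb2 and Foxm1 had intervals that spanned 0. Cdk1, the mitotic kinase, had 1886 adjusted reads with In-Cl, 2063 with DPN, 2239 with E2, 2378 in hypoxia alone and 2772 in the control. The control was highest and In-Cl lowest, and hypoxia was 1.17-fold lower than the control (log2 -0.22, interval -0.30 to -0.14). Ccnb1, cyclin B1 and the main partner of CDK1, had 905 adjusted reads with In-Cl, 1148 with DPN, 1099 with E2, 1089.7 in hypoxia alone and 1301 in the control (log2 -0.26, interval -0.37 to -0.14 for hypoxia). Its 4 hypoxic values lay under the control, with In-Cl apart from the other 3. Ccnb2, cyclin B2, had 545 adjusted reads with In-Cl, 573 with DPN, 571 with E2, 606 in hypoxia alone and 659 in the control (log2 -0.12, interval -0.28 to 0.036). Ccna2, cyclin A2, which acts from S phase into early mitosis, had 967 adjusted reads with In-Cl, 1052 with DPN, 1141 with E2, 1050.3 in hypoxia alone and 1282 in the control (log2 -0.29, interval -0.40 to -0.17).

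Cdc25b and Cdc25c encode phosphatases that remove the inhibitory phosphates from CDK1. Cdc25b had 499 adjusted reads with In-Cl, 514 with DPN, 524 with E2, 483 in hypoxia alone and 647 in the control, and all 4 hypoxic libraries lay close together under the control (log2 -0.42, interval -0.59 to -0.25). Cdc25c, the member with the fewest reads, had 192 adjusted reads with In-Cl, 188 with DPN, 132 with E2, 148 in hypoxia alone and 227 in the control; hypoxia and E2 were lowest, and In-Cl and DPN lay between them and the control. Foxm1 had 614 adjusted reads with In-Cl, 558 with DPN, 564 with E2, 552 in hypoxia alone and 591 in the control. Its lowest and highest libraries differed 1.11-fold and the hypoxia interval spanned 0 (log2 -0.10, interval -0.26 to 0.067), so no difference of this transcription factor from the control was detectable at this depth in hypoxia alone.

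The 3 mitotic kinases and survivin, 4 of 4 with an interval below 0 in hypoxia (against 39.0% of rows), had a median of -0.21. Plk1, which matures centrosomes and helps trigger mitotic entry, had 823 adjusted reads with In-Cl, 929 with DPN, 941 with E2, 1041 in hypoxia alone and 1183 in the control (log2 -0.18, interval -0.30 to -0.068). Aurka, the centrosome and spindle kinase, had 483 adjusted reads with In-Cl, 521 with DPN, 475 with E2, 540.2 in hypoxia alone and 639 in the control (log2 -0.24, interval -0.40 to -0.079), and Tpx2, the spindle protein that activates it, had 1451 adjusted reads with In-Cl, 1709 with DPN, 1456 with E2, 1720.0 in hypoxia alone and 2030.0 in the control (log2 -0.24, interval -0.33 to -0.15). For both, In-Cl and E2 were the lowest libraries. Aurkb, the kinase of the chromosomal passenger complex that corrects faulty attachments, had 624 adjusted reads with In-Cl, 623 with DPN, 667 with E2, 715 in hypoxia alone and 795 in the control (log2 -0.15, interval -0.30 to -0.011). Its partner Birc5, survivin, had 305 adjusted reads with In-Cl, 352 with DPN, 344 with E2, 359 in hypoxia alone and 445 in the control (log2 -0.31, interval -0.51 to -0.11). Incenp, the scaffold of that complex, was not lower in hypoxia (log2 0.13, interval 0.021 to 0.25).

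Kinetochore genes split. Ndc80 and Nuf2 encode the 2 chains of a dimer that grips microtubules, and they were lower in hypoxia by nearly the same amount. Ndc80 had 484 adjusted reads with In-Cl, 525 with DPN, 505 with E2, 543 in hypoxia alone and 688 in the control (log2 -0.34, interval -0.50 to -0.18). Nuf2 had 694 adjusted reads with In-Cl, 643 with DPN, 731 with E2, 719.6 in hypoxia alone and 905 in the control (log2 -0.33, interval -0.47 to -0.19). Cenpa, the histone variant that marks the centromere, had 210.1 adjusted reads with In-Cl, 335 with DPN, 299 with E2, 266 in hypoxia alone and 329.8 in the control (log2 -0.31, interval -0.54 to -0.08); DPN was level with the control and In-Cl far under it. Cenpf had 1255 adjusted reads with In-Cl, 1004 with DPN, 1043 with E2, 1018 in hypoxia alone and 899 in the control (log2 0.18, interval 0.053 to 0.30). Its control was the lowest library and In-Cl the highest.

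All 4 spindle checkpoint genes had an interval below 0 in hypoxia (against 39.0% of rows), with a median of -0.37. Bub1, the checkpoint kinase at kinetochores, had 998 adjusted reads with In-Cl, 1044 with DPN, 1037 with E2, 943 in hypoxia alone and 1269 in the control (log2 -0.43, interval -0.55 to -0.31), with hypoxia lowest and the ligand libraries close together. Bub1b, which encodes BUBR1 of the mitotic checkpoint complex, had 874 adjusted reads with In-Cl, 834 with DPN, 909.8 with E2, 827 in hypoxia alone and 994 in the control (log2 -0.26, interval -0.40 to -0.13). Mad2l1 had 325 adjusted reads with In-Cl, 362 with DPN, 415 with E2, 297 in hypoxia alone and 429 in the control, so hypoxia was lowest and E2 was close to the control (log2 -0.046, interval -0.24 to 0.15). Ttk, the kinase MPS1 that starts checkpoint signalling, had 524 adjusted reads with In-Cl, 508 with DPN, 519 with E2, 558 in hypoxia alone and 691 in the control (log2 -0.31, interval -0.47 to -0.15).

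Motor and spindle genes ranged from clearly lower to level. Kif2c, a kinesin that takes microtubules apart at centromeres, had 592 adjusted reads with In-Cl, 611 with DPN, 620.2 with E2, 680.2 in hypoxia alone and 832 in the control (log2 -0.29, interval -0.44 to -0.15). Kif20b, a kinesin of late cytokinesis, had 686 adjusted reads with In-Cl, 634 with DPN, 557 with E2, 586 in hypoxia alone and 721 in the control (log2 -0.30, interval -0.45 to -0.14). Kif11, the motor that pushes the spindle poles apart, had 1171 adjusted reads with In-Cl, 991 with DPN, 1077 with E2, 960.4 in hypoxia alone and 1079.9 in the control (log2 -0.17, interval -0.29 to -0.047), and with In-Cl it stood above the control. Kif20a, needed at the central spindle, had 2124 adjusted reads with In-Cl, 2203 with DPN, 2036 with E2, 2366 in hypoxia alone and 2475 in the control (log2 -0.065, interval -0.14 to 0.014). Hmmr, a spindle assembly factor, had 1044 adjusted reads with In-Cl, 1029 with DPN, 963 with E2, 935 in hypoxia alone and 1144 in the control (log2 -0.29, interval -0.41 to -0.17). Aspm, a spindle pole protein, had 557 adjusted reads with In-Cl, 448 with DPN, 518 with E2, 428 in hypoxia alone and 430.1 in the control; hypoxia was level with the control (log2 -0.009, interval -0.20 to 0.18). Nusap1, which bundles spindle microtubules, stayed within 1.11-fold over all 5 libraries (log2 0.041, interval -0.10 to 0.18).

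For the exit from mitosis, Cdc20, the activator of the anaphase-promoting complex, had 1379 adjusted reads with In-Cl, 1457 with DPN, 1356 with E2, 1500.3 in hypoxia alone and 1888 in the control (log2 -0.33, interval -0.43 to -0.24). Ube2c, the ubiquitin-conjugating enzyme of the same machine, had 714 adjusted reads with In-Cl, 908 with DPN, 797 with E2, 942 in hypoxia alone and 1052 in the control (log2 -0.16, interval -0.28 to -0.035). In both the control was highest. Prc1, which bundles the midzone microtubules of anaphase, had 2389 adjusted reads with In-Cl, 2439.6 with DPN, 2673 with E2, 2591 in hypoxia alone and 2918 in the control (log2 -0.17, interval -0.24 to -0.10). Ect2, which activates RhoA to form the cleavage furrow, had 1386 adjusted reads with In-Cl, 1377 with DPN, 1454 with E2, 1249 in hypoxia alone and 1579 in the control (log2 -0.34, interval -0.44 to -0.23). Kif23 and Racgap1 encode the 2 parts of centralspindlin, which recruits ECT2, and each stayed within 1.11-fold over the 5 libraries. The hypoxia difference was -0.049 for Kif23 (interval -0.13 to 0.033) and -0.13 for Racgap1 (interval -0.24 to -0.021). Top2a, the topoisomerase that untangles chromosomes, had 3127 adjusted reads with In-Cl, 2844 with DPN, 2836 with E2, 2718 in hypoxia alone and 3002 in the control (log2 -0.14, interval -0.22 to -0.07). Mki67 had 3465 adjusted reads with In-Cl, 2754 with DPN, 2781 with E2, 3105 in hypoxia alone and 2808 in the control, with In-Cl and hypoxia above the control and DPN and E2 about level with it.

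Of 67 abundant genes in the wider list of kinetochore, condensin, spindle and mitotic control genes, 39 had an interval below 0 in hypoxia and 5 above, where 39.0% of abundant rows were below and 28.8% above. Their median was -0.19, against -0.045 over those rows. Among spindle motor and microtubule genes Cep55, which directs the final cut between daughter cells (-0.61), and Psrc1 (-0.54) were lowest, and the midbody kinase Cit (0.24, below the abundance level) and Numa1, which anchors spindle poles (0.49), highest. Among genes of mitotic entry and exit the phosphatase Cdkn3 (-0.56) and the CDK1-inhibiting kinase Wee1 (-0.53) were lowest, and the ligase subunit Anapc11 (0.25) and the pocket protein Rbl2 (0.33) highest. Among condensin and cohesin genes Smc2 (-0.52) and Pds5a (-0.52) were lowest, and the securin gene Pttg1 (0.045) and Ncapd3 (0.17) highest. Kinetochore genes ran from Cenpm (-0.48) and Dsn1 (-0.45) to Hjurp (0.10) and Incenp. Cenpm, Dsn1 and Hjurp were below the abundance level.

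S phase genes were further below the control than the mitotic members: 20 of 23 abundant ones had an interval below 0 and 0 above (against 39.0% and 28.8% of rows), and the median was -0.42 (against -0.045). Cyclin E, Ccne1, was lowest at -1.01, then the replication gene Mcm10 at -0.99 (below the abundance level), and Cdc6 (0.032) and E2f1 (0.10) were highest. The difference between the lists was not tested. Of 9 abundant genes among CDK inhibitors, D cyclins and their partners, 5 had an interval above 0 and 4 below, against 28.8% and 39.0% of rows. Cdkn1a, the CDK inhibitor p21, was 1.94-fold lower in hypoxia (log2 -0.95, interval -1.02 to -0.89) and the D cyclin Ccnd3 was at -0.30. Cdkn1b, the CDK inhibitor p27, was 1.52-fold higher (log2 0.60, interval 0.49 to 0.72) and Rb1 was at 0.30.

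**Figure D3:**
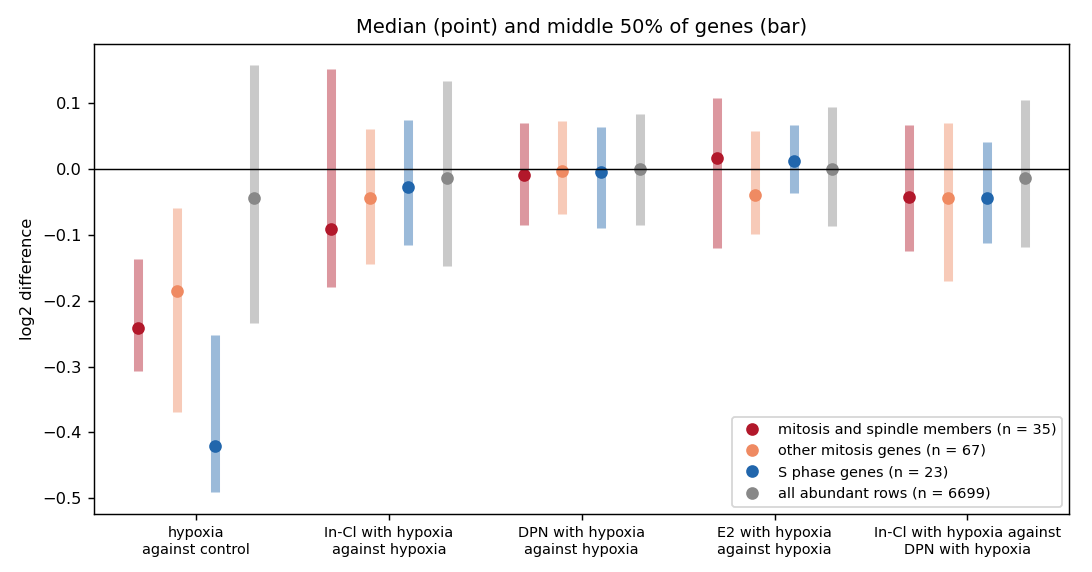
Median log2 difference (point) and the middle 50% of genes (bar) for the mitosis and spindle members, other mitosis genes, S phase genes and all abundant rows, in 5 comparisons of libraries (x axis). The medians of hypoxia against control are -0.24, -0.19, -0.42 and -0.045, and those of the other comparisons lie between -0.092 and 0.017.

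The members were chosen as mitotic genes, and their promoters were read for elements that many mitotic genes are known to share. One is the CCAAT box, bound by NF-Y. The other is the cell cycle genes homology region (CHR), bound by MuvB, with the core TTTGAA or, less often, TTCGAA. Sequences are those of RefSeq on build GRCr8, from 250 bases before the annotated gene start to 50 after it, and 29 of the 35 members had one; Foxm1, Ccna2, Tpx2, Aurkb, Racgap1 and Ube2c had none in the table used. The 6 printed below, 150 bases before the start to 30 after, are 4 genes that were lower in hypoxia than in the control (Cdk1, Plk1, Cdc20 and Birc5) and 2 that were not (Cenpf above it and Aspm level with it). Each runs 5′ to 3′ on the strand of its gene, and capitals mark the motifs on either strand, so ATTGG is CCAAT read from the other strand.
Cdk1, chr20:19265143-19265322, plus strand: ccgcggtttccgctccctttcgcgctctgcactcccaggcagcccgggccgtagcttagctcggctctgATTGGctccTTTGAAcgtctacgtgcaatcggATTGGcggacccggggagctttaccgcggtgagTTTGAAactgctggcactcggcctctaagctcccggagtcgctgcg
Plk1, chr1:186147508-186147687, plus strand: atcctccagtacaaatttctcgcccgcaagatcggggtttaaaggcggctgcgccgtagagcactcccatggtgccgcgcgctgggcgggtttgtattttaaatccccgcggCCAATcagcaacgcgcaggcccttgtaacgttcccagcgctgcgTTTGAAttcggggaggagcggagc
Cdc20, chr5:137255770-137255949, minus strand: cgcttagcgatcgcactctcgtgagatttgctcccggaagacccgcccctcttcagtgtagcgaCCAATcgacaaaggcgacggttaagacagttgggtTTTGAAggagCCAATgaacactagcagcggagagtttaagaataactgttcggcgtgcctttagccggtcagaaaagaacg
Birc5, chr10:103571996-103572175, plus strand: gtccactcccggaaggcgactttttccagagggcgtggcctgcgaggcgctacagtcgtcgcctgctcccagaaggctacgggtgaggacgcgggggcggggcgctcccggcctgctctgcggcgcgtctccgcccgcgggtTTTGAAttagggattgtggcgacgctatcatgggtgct
Cenpf, chr13:103760857-103761036, minus strand: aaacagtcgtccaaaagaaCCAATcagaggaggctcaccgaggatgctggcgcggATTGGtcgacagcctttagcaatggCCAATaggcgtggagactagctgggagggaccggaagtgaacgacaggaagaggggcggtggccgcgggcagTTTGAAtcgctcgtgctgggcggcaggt
Aspm, chr13:53625434-53625613, plus strand: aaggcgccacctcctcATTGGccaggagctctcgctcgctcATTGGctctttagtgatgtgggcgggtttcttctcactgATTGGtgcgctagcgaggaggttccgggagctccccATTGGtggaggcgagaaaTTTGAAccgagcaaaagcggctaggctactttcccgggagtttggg

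All 6 windows hold TTTGAA, whether the gene was lower in hypoxia or not. Its nearest copy begins 16 bases before the start in Cdk1 and in Aspm, 51 before in Cdc20 and 8 before in Birc5, and it lies just after the start in Plk1 and Cenpf. The box of Birc5 for NF-Y lies farther out than the printed stretch. Over the 29 members with a promoter, CCAAT or its reverse was in 22 (75.9%). The share was 37.5% of the 33469 promoters of the table and 39.0% of the 5174 other abundant genes with a promoter there. Members and other abundant genes were counted by gene, and the whole table by promoter. A CHR core on either strand was in 23 (79.3%), against 19.7% of all promoters and 12.6% of the other abundant genes. TTTGAA was in 22 and TTCGAA, which reads the same on both strands, in 3. Both kinds of motif together were in 19 (65.5%), against 7.95% of all promoters and 5.39% of the other abundant genes. In 1 place 2 motifs shared bases. The 23 members with a CHR core had a median hypoxia difference of -0.29 (from -0.62 to 0.18) and the 6 without it -0.25 (from -0.43 to -0.065), so the ranges overlapped. A match is a stretch of letters and no measurement of binding. A high share among genes chosen as mitotic does not by itself bear on their differences in hypoxia.

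**Figure D4:**
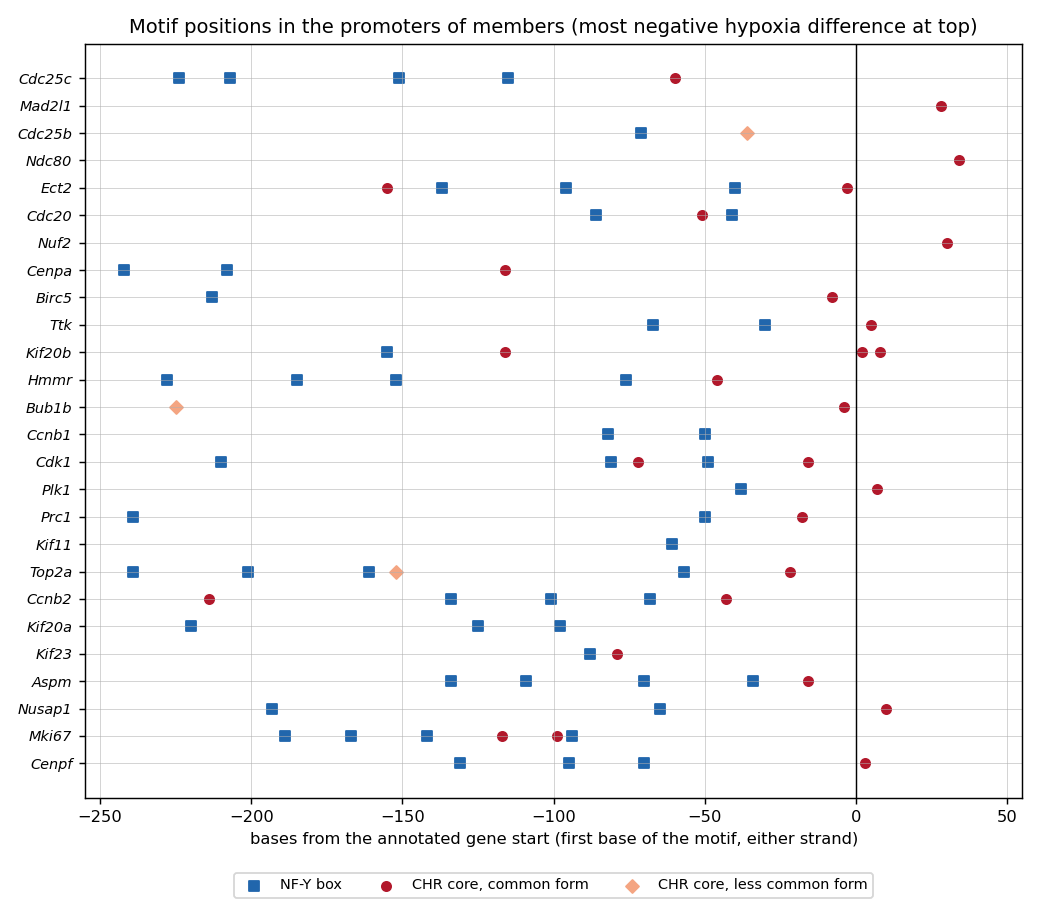
Position of the first base of each motif (x axis, bases from the annotated gene start) in the 26 member promoters that hold one (y axis, ordered by hypoxia against control). NF-Y boxes are CCAAT, the common CHR core is TTTGAA and the less common one TTCGAA. A CHR core between 60 bases before the start and 30 after it is held by 19 members. That stretch was not counted in other promoters, so the 19 have no background share beside them.

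The library with In-Cl was set against that of hypoxia alone, as a pair of single libraries. Members lay on both sides of hypoxia, and their middle 50%, from -0.18 to 0.15, was near that of all abundant rows, from -0.15 to 0.13. Ube2c (log2 -0.40, interval -0.54 to -0.26), Cenpa (log2 -0.34, interval -0.61 to -0.072), Plk1 (log2 -0.34, interval -0.47 to -0.21) and Cdk1 (log2 -0.33, interval -0.42 to -0.25) were lowest. Aspm (log2 0.38, interval 0.20 to 0.57), Cdc25c (log2 0.38, interval 0.066 to 0.71), Cenpf (log2 0.30, interval 0.18 to 0.42) and Kif11 (log2 0.29, interval 0.16 to 0.41) were highest. The summed level was 37424 adjusted reads with In-Cl and 38079 in hypoxia, a difference of -1.72%. Of the 35, 20 lay below 0 (57.1%, against 52.7% of rows) and 15 above (42.9%, against 47.1%).

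The interval was below 0 for 12 members (34.3%, against 29.1% of abundant rows) and above 0 for 9 (25.7%, against 25.3%), shares near the background. No member reached 1.5-fold, where 1.22% of rows were higher and 0.194% lower by that much. At 0.32 or more on the log2 scale 4 members were lower (11.4%, against 4.84%), namely Ube2c, Cenpa, Plk1 and Cdk1, and 2 were higher (5.7%, against 7.67%). Of the 33 members above the abundance level 3 were lower and 1 higher by that much. The median of the members was -0.092 and that of all rows -0.014, and with library totals the members' median was -0.023.

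By role, all 4 of Plk1, Aurka, Aurkb and Birc5 lay below 0 with In-Cl (against 52.7% of rows), 3 of them by their intervals (against 29.1%), with a median of -0.22. Cdc20 and Ube2c had intervals below 0 too. These roles were picked out after their values were seen. Ccnb1 was 1.20-fold lower (log2 -0.27, interval -0.40 to -0.14), as were Tpx2 (-0.24), Kif2c (-0.20), Kif20a (-0.16) and Prc1 (-0.12) by smaller or like amounts. On the other side were Kif20b (0.23), Top2a (0.20), Hmmr (0.16), Mki67 (0.16) and Ect2 (0.15). The intervals of all 4 checkpoint genes spanned 0. In-Cl held the lowest of the 5 values for 13 members (37.1%, against 29.3% of abundant rows) and the highest for 6 (17.1%, against 22.6%), which were Aspm, Cenpf, Foxm1, Kif11, Mki67 and Top2a.

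In the wider mitosis list 16 of 67 abundant genes had an interval below 0 with In-Cl and 11 above, fewer for the size of the list than among all abundant rows (29.1% below and 25.3% above). Pds5a (0.54) and Pds5b (0.38), which regulate cohesin, Kntc1 (0.38) and Mis12 (0.47) of the kinetochore, Cdc27 (0.36) of the anaphase-promoting complex, Wee1 (0.31), Numa1 (0.26) and Cit (0.35) were the highest of their groups. Pkmyt1, which inhibits CDK1 (-0.63), the kinetochore genes Ska1 (-0.58) and Pmf1 (-0.53), Ube2s (-0.37), Stmn1 (-0.32), Gpsm2 (-0.32), Pttg1 (-0.31) and Cdca5 (-0.21) were the lowest. Among S phase genes Pola1, of the DNA polymerase that starts new strands (0.54), and Mcm10 (0.16) stood against Chaf1b (-0.50) and Gins1 (-0.45). Among the CDK inhibitors and their partners Rb1 (0.21) and Mdm2 (0.15) stood against Cdkn2c (-0.54) and Cdkn2a (-0.35). Mis12, Cit, Pkmyt1, Ska1, Pmf1, Gpsm2, Cdca5, Mcm10, Chaf1b, Gins1 and Cdkn2a were below the abundance level. In the same pair of libraries all 79 ribosomal protein genes had an interval below 0, with a median of -0.25, and so did 6 of 6 abundant smooth muscle markers, with a median of -0.43 (against 29.1% of rows and a median of -0.014). The part of either shift in these values was not tested, and neither was the relation of the In-Cl differences to gene length.

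**Figure D5:**
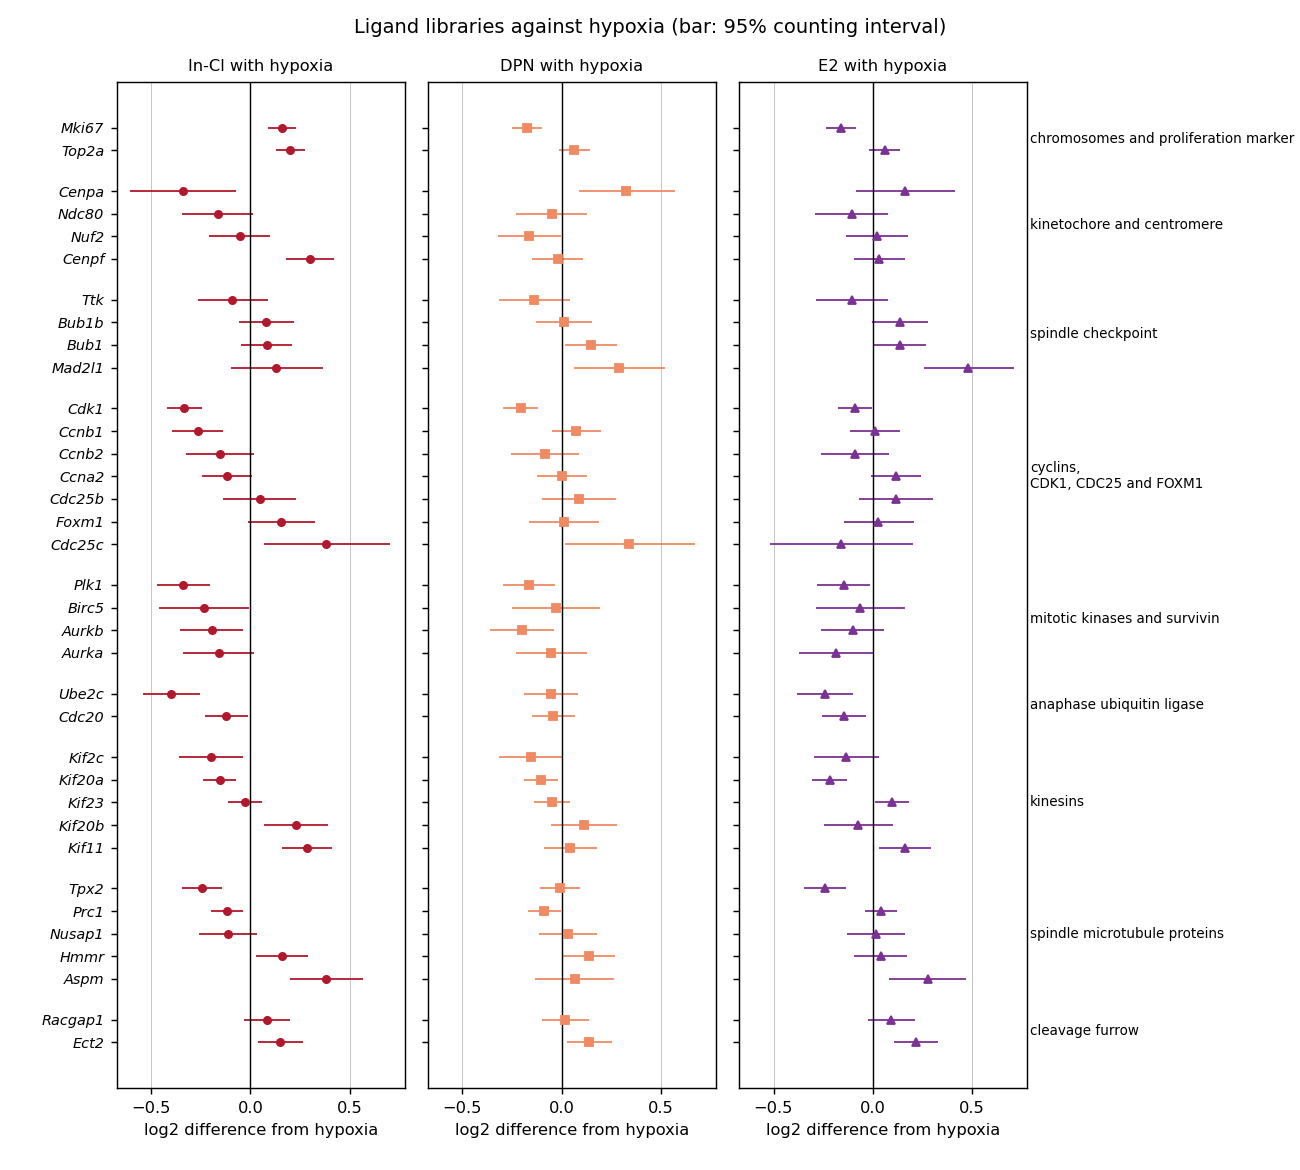
Log2 difference from the hypoxia library (x axis) of the 3 ligand libraries for the 35 genes (y axis, grouped by role); bars are 95% counting intervals. With In-Cl the genes run from -0.40 (Ube2c) to 0.38 (Aspm), and with DPN most bars cross 0.

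With DPN the members stayed close to hypoxia, with a median of -0.009. Of the 35, 17 lay above 0 (48.6%, against 49.8% of rows) and 18 below (51.4%, against 49.9%), or 20 and 15, with a median of 0.033, with library totals. The summed level was 37304 adjusted reads with DPN and 38079 in hypoxia, a difference of -2.04%. Cdc25c (log2 0.34, interval 0.018 to 0.67), Cenpa (log2 0.33, interval 0.087 to 0.57), Mad2l1 (log2 0.29, interval 0.063 to 0.52) and Bub1 (log2 0.15, interval 0.016 to 0.28) were highest. Cdk1 (log2 -0.20, interval -0.29 to -0.12), Aurkb (log2 -0.20, interval -0.36 to -0.038), Mki67 (log2 -0.17, interval -0.25 to -0.10) and Plk1 (log2 -0.16, interval -0.30 to -0.033) were lowest. The interval was above 0 for 6 members (17.1%, against 15.8% of rows) and below for 7 (20.0%, against 17.3%), again near the background. At 0.32 or more on the log2 scale 2 members were higher (5.7%, against 1.48%), and 0 were lower (against 1.34%). The 2 are Cdc25c and Cenpa, which have the fewest reads and lie below the abundance level that the rows passed. Of the 33 members above that level 0 were that much higher. No member reached 1.5-fold, where 0.119% of rows were higher and 0.179% lower by that much. All 6 abundant smooth muscle markers were lower with DPN too, with a median of -0.33. Of the 79 ribosomal protein genes 60 had an interval below 0 and 2 above (against 17.3% and 15.8% of rows), with a median of -0.065. The part of either shift in the members' values was not tested.

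With E2, at 10 nM, Mad2l1 stood apart. It was 1.40-fold higher than in hypoxia (log2 0.48, interval 0.26 to 0.71). Aspm (log2 0.28, interval 0.085 to 0.47), Ect2 (log2 0.22, interval 0.11 to 0.33), Cenpa (log2 0.17, interval -0.083 to 0.42) and Kif11 (log2 0.17, interval 0.034 to 0.29) came next, and the interval of Cenpa spanned 0. Ube2c (log2 -0.24, interval -0.38 to -0.10), Tpx2 (log2 -0.24, interval -0.34 to -0.14), Kif20a (log2 -0.22, interval -0.31 to -0.13) and Aurka (log2 -0.18, interval -0.37 to 0.001) were lowest. The median was 0.017, with 19 members above 0 (54.3%, against 49.9% of rows) and 16 below (45.7%, against 49.9%). The interval was above 0 for 6 (17.1%, against 18.0% of rows) and below for 7 (20.0%, against 17.9%), near the background. At 0.32 or more on the log2 scale 1 member was higher (2.9%, against 2.34%) and 0 were lower (against 1.54%), and none reached 1.5-fold, where 0.119% of rows were higher and 0.104% lower by that much. The summed level was 37688 adjusted reads with E2 and 38079 in hypoxia, a difference of -1.03%. Of the 6 abundant smooth muscle markers 5 had an interval below 0 and 1 above (against 17.9% and 18.0% of rows), with a median of -0.081. Of the 79 ribosomal protein genes 74 had one below 0 and 0 above, with a median of -0.091. The part of either shift in the members' values was not tested.

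The 3 ligand comparisons share the hypoxia library, so a high or low value in it enters all of them. Mad2l1, whose hypoxia value was the lowest of the 5, was at 0.13 in the In-Cl library, 0.29 in the DPN library and 0.48 in the E2 library. Cdk1 was at -0.33, -0.20 and -0.087 in the same order, and Plk1 at -0.34, -0.16 and -0.15. These 2 kinase genes had all 3 intervals below 0, and so did Kif20a, at -0.16, -0.10 and -0.22. Ect2 had all 3 above 0, at 0.15, 0.14 and 0.22. The share of abundant rows with all 3 intervals on the same side was not computed, so these cases have no background beside them. The doses of In-Cl and DPN differ from that of E2, and no comparison was made between E2 and either of them.

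In-Cl and DPN were given at the same dose, and their 2 libraries were compared as 1 pair. Cenpa was 1.59-fold lower with In-Cl than with DPN (log2 -0.67, interval -0.93 to -0.41), with 210.1 adjusted reads with In-Cl and 335 with DPN. It was 1 of 35 members at least 1.5-fold lower (2.9%, against 0.0448% of rows). Those rows lie above the abundance level and Cenpa below it, so the 2 shares are not a like comparison. Of the 33 members above that level 0 were 1.5-fold lower. No member was 1.5-fold higher (against 0.508%), and 0 were 2-fold lower (against 0.0149%). At 0.32 or more on the log2 scale 3 of the 35 were lower (8.6%, against 1.99%) and 2 higher (5.7%, against 4.3%). Of the 33 above the abundance level 2 were lower and 2 higher by that much. Ube2c (log2 -0.35, interval -0.49 to -0.20), Ccnb1 (log2 -0.34, interval -0.47 to -0.21) and Tpx2 (log2 -0.24, interval -0.34 to -0.13) were next lowest. Mki67 (log2 0.33, interval 0.26 to 0.41), Cenpf (log2 0.32, interval 0.20 to 0.45), Aspm (log2 0.32, interval 0.13 to 0.50) and Kif11 (log2 0.24, interval 0.12 to 0.37) were higher with In-Cl. The interval was below 0 for 6 members (17.1%, against 24.6% of rows) and above 0 for 5 (14.3%, against 20.5%). For the other 24 it included 0, and for Aurkb, at 624 adjusted reads with In-Cl and 623 with DPN, it ran from -0.16 to 0.17. The median was -0.043, with 19 members below 0 (54.3%, against 53.3% of rows) and 16 above (45.7%, against 46.5%), and the summed level was 37424 adjusted reads with In-Cl and 37304 with DPN, a difference of 0.32%.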

How the data were processed

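RNA abundance was measured in 5 libraries of rat vascular smooth muscle cells, 1 per group, prepared from Trizol-extracted total RNA with a stranded kit (per the labels' protocols). The authors deposited 1 table per library of log2 values for 17048 rows. Build rn6, TopHat and edgeR are listed without order or version, per the submitters' processing notes. The sources used here do not give the counter, its annotation or its use of strand, so reads of a gene and of an antisense partner cannot be told apart. The deposited log2 values are log2(linear value + 1). Low linear values fall in steps, within 0.2 read of whole steps for 88.3% of values up to 2.5 reads in the control and 99.1% to 100% in the other libraries. A step (0.835 in the control, 0.988 to 1.10 in the others) was taken as 1 read to give approximate reads. These are adjusted values and not counts, so no count model was fitted. Gene length was not used, so levels are not compared between genes.

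Members were matched by symbol, 1 row each. A call was a 1.5-fold difference, with a log2 difference of 0.32, 2-fold and the counting interval as alternatives, beside the share of the 6699 most abundant rows called. Intervals and calls were tested on simulated data that held counting error alone. That test cannot tell how they do with variation from culture to culture. Named genes are the 4 highest and 4 lowest members of each comparison, members of each role, and the 2 highest and 2 lowest genes of each other list; further members, Incenp and ribosomal protein genes were named after their values were seen. The members and the lists were chosen with earlier results of these data known. Python 3.11.15, numpy 2.4.6, pandas 2.3.3 and scipy 1.17.1 were used.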

Additional observations from a re-analysis of the deposited data

How the results depend on the processing

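The alternatives for the medians and the counts were low values raised to 3 reads, a pseudocount of 10, median centring, quantile normalization, division by library totals, members above the abundance level, summed rows of a symbol and other thresholds. In hypoxia against control the median was -0.39 with library totals, a scaling that shifts every row, and -0.20 with median centring. Under all alternatives run but library totals it moved by less than the counting error typical of a single member. The counting error of the median itself was not computed. The count of members at least 1.5-fold lower there, 1, was 0 with median centring, with members above the abundance level and at 2-fold, 2 with library totals, 8 at a log2 difference of 0.32 and 27 by the interval, and the count higher, 0, was 2 by the interval. With In-Cl against hypoxia the counts higher and lower, 0 and 0, were 2 and 4 at 0.32 and 9 and 12 by the interval. With DPN they were 2 and 0 at 0.32 and 6 and 7 by the interval, and with E2 1 and 0, and 6 and 7. For In-Cl against DPN, the counts higher and lower, 0 and 1, were 2 and 3 at 0.32 and 5 and 6 by the interval, and the lower count was 0 at 2-fold and with members above the abundance level.

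Among single members, Cdc25c in hypoxia was no longer 1.5-fold lower with median centring (-0.57), and Mad2l1 was past 1.5-fold with library totals (-0.67). The cause was not tested in any case. The member values past 1.5-fold, Cdc25c in hypoxia against control and Cenpa in In-Cl against DPN, did not change sign. Smaller differences were not checked for a change of sign. An adjustment for protein length had been planned and was not run, since no protein or transcript lengths were available. The differences, those with In-Cl included, were thus not checked against length. No paired analysis was possible because each group has 1 library. With 1 library per group, counting error is the only error measured.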
